A study of Mus musculus with 16 samples.

Results

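The genes described here build, drive and check mitosis: the cyclin-dependent kinase that starts it, the kinetochore and spindle that move the chromosomes, the spindle checkpoint, the chromosomal passenger complex, condensin and topoisomerase, the machinery of mitotic exit and that of cytokinesis. They were a list of 50 genes in 9 roles, named by the platform annotation of a mouse bead array, and 44 of them had a probe among the 16593 genes measured. Ccnb1, Cenpf, Aurkb, Ncapg, Smc4 and Racgap1 had none and were not analysed here. Where a gene had several probes, the brightest on average over the 16 arrays stands for it. The list was made by name and role, with earlier results of these data known.

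The arrays held RNA of mouse prostate and prostate tumours. TRAMP mice carry the SV40 T antigen under the probasin promoter, which drives it in prostate epithelium. Neuroendocrine carcinomas (NECa) came from 3 TRAMP mice given vehicle and 3 given AGN, an extract of Angelica gigas Nakai root, and were set against 2 wild-type whole prostates taken at 24 to 28 weeks of age. Dorsal-lateral prostate (DLP) was measured at 16 and at 28 weeks of age, with 1 array at each age for wild-type C57BL/6 mice and for TRAMP mice given vehicle, AGN or D/DA (decursin and decursinol angelate, pyranocoumarins of that root). The strain field of the 2 whole-prostate controls names TRAMP although their other labels name wild type. The ages of the carcinoma-bearing mice, the doses and whether a DLP array held RNA of pooled animals are not given in the sources used here, so a p-value here reflects array-to-array spread that may be partly technical.

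Mitotic genes are switched on late in the cell cycle. In resting cells the DREAM complex holds many of them off through a promoter element called the CHR (cell cycle genes homology region), often next to CCAAT boxes bound by the factor NF-Y. In dividing cells the MuvB core works with B-Myb, the product of Mybl2, and with Foxm1 at the same elements. Large T antigen binds the retinoblastoma proteins and p53, which restrain entry into the cycle. In normal adult prostate few epithelial cells divide.

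Promoter letters are shown because matches to these elements were found in every role except the regulators, where the windows of Mybl2 and Melk held none and Pbk and Foxm1 had no window. RefSeq promoter windows of build GRCm38.p6, 250 bases before to 50 bases after the gene's start, were found for 42 of the 50 listed genes and for 27025 genes in all, taking the first window listed for each gene. They were searched on both strands for the CHR as TTTGAA or TTCGAA, for CCAAT, and for an E2F-type site as TTTCCCGC, TTTCGCGC or TTTGGCGC. No pair of these motifs shares more than a few end letters, and overlapping matches were each counted. A CHR was present in 31 of 42 windows (73.8%) against 19.4% of all windows. CCAAT was present in 31 of 42 (73.8%) against 37.9%, and both motifs in 27 (64.3%) against 7.70%. The E2F-type letters were found in 4 of 42 (9.52%) against 1.91%: in Cdk1, Kif15, Ncapd2 and Ncapg. Neither CHR nor CCAAT was found in the windows of Birc5, Mad2l1, Melk, Mybl2, Ncaph, Nuf2 and Pttg1. These matches describe the letters only.

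The windows below run from 100 bases before to 25 bases after the start, 5' to 3' on the gene's strand, with CHR and CCAAT matches on either strand in capitals (ATTGG and TTCAAA are the reverse strand's letters). Cenpa, Prc1, Cdk1 and Cdc20 are among the genes that rose most in TRAMP DLP. Kif22 had the largest difference between its rises in vehicle carcinomas and in vehicle DLP. Bub3 carried both elements and passed the test in carcinomas but not in TRAMP DLP, and Ncaph carried none. The Cenpa window is chr5:30666786-30666910 on the plus strand, that of Prc1 is chr7:80294351-80294475 on the plus strand, and that of Cdk1 is chr10:69352888-69353012 on the minus strand. Cdc20 lies at chr4:118437319-118437443 on the minus strand, Kif22 at chr7:127042396-127042520 on the minus strand, Bub3 at chr7:131560270-131560394 on the plus strand and Ncaph at chr2:127133930-127134054 on the minus strand. The RefSeq windows give the following letters.
Cenpa: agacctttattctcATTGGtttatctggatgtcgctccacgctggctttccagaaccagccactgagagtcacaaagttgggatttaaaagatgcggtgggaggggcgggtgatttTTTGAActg
Prc1: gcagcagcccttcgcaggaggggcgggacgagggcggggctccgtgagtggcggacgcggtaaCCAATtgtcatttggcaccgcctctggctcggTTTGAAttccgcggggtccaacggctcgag
Cdk1: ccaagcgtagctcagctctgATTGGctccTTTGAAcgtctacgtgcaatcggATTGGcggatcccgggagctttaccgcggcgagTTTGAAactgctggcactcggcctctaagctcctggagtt
Cdc20: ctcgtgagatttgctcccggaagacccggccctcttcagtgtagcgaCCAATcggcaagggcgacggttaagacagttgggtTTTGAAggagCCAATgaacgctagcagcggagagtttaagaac
Kif22: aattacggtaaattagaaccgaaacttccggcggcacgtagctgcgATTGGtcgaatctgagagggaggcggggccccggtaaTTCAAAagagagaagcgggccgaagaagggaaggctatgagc
Bub3: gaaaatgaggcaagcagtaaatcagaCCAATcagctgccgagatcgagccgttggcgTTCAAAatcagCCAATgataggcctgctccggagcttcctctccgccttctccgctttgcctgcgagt
Ncaph: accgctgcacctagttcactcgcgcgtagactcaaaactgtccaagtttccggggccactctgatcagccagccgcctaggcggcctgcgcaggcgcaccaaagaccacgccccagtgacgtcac

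The deposited values were normalized linear intensities with the background left in, so a silent probe reads about 150, the median of an array lying between 151 and 166. A log2 difference of a gene that starts near this floor is a lower estimate of its change. Of the 44 genes, 11 stayed at the floor on all 16 arrays, between 117.8 and 171.4: Ccnb2, Cenpe, Nuf2, Bub1, Ttk, Smc2, Nek2, Hmmr, Pttg1, Ect2 and Kif20a. The limit used for this, a highest value under 0.2 log2 above the array median, was set after the values were seen and falls in a gap between Pttg1 (0.138) and Ube2c (0.360). These probes show no level in any tissue, and no statement on the expression of those genes is drawn from them. The other 33 genes were above the floor on at least 1 array, and all counts below are out of 44.

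In wild-type tissue 24 of the 44 genes read less than 0.2 log2 above the array median on all 4 arrays, and 20 read higher on at least 1. The highest were Ncaph (274.9 to 682.9), Anln (307.3 to 411.0), Cenpa (361.2 to 384.1), Spc25 (178.0 to 353.5), Cdca3 (278.8 to 334.1) and Prc1 (285.9 to 322.7), 1 log2 or more above the median on at least 1 wild-type array. Over all 44, with the silent probes included, the mean log2 level was 7.52 and 7.53 in the whole prostates and 7.46 and 7.51 in wild-type DLP, against 8.13 to 8.37 in TRAMP DLP and up to 9.80 in NECa. Between wild-type prostate and wild-type DLP 1 gene passed the test, against 5.83% of all genes: Spc25, a subunit of the NDC80 complex that ties kinetochores to microtubules. It was lower in whole prostate by -0.75 ± 0.16 log2 (SE, adjusted p = 0.0157, limma), and without either whole prostate no gene passed. Pbk differed by -0.01 ± 0.24, Cenpa by -0.05 ± 0.19, Cdk1 by -0.03 ± 0.19, Top2a by 0.06 ± 0.24 and Bub3 by 0.14 ± 0.12. In a heat map of all 44 genes the 4 wild-type arrays are almost blank, the TRAMP DLP arrays intermediate and the carcinomas deep.

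**Figure D1:**
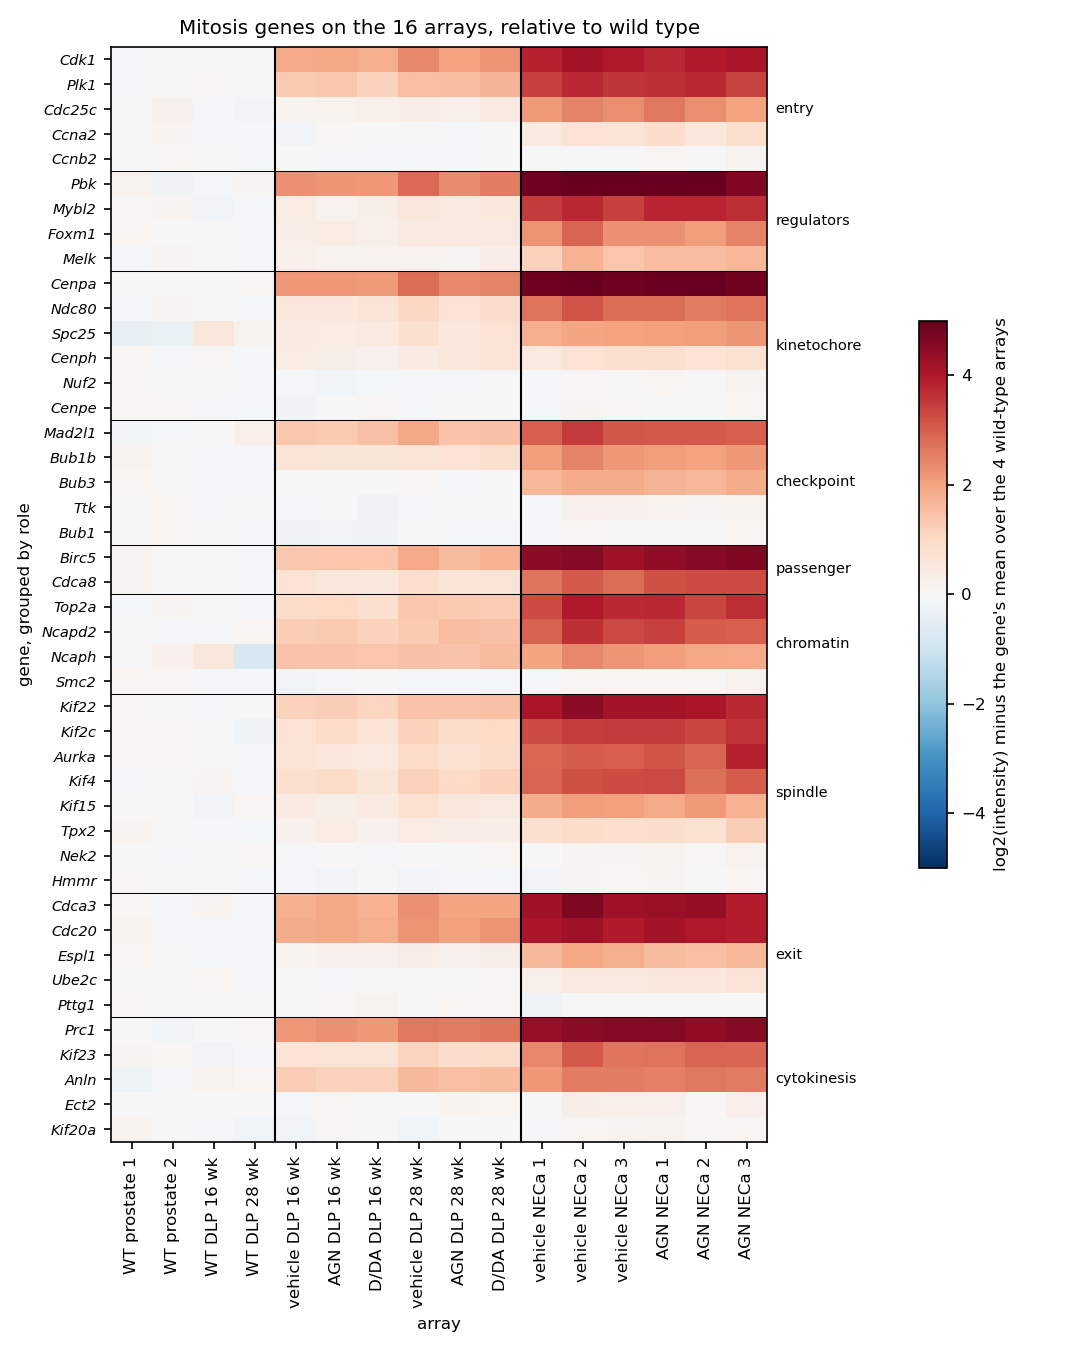
Log2 intensity of the 44 mitosis genes (rows, grouped by role) on the 16 arrays (columns), each gene minus its own mean over the 4 wild-type arrays. The 6 carcinoma columns are the deepest red, the 6 TRAMP DLP columns are paler, and the 11 floor genes are blank throughout.

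The first comparison asks which mitotic genes are raised in carcinomas. In vehicle NECa 33 of 44 genes were higher than in wild-type prostate and none lower, against 12.9% of all genes called higher, and their median difference was 2.25 log2 against -0.01 over all genes. The 11 floor genes were those not called. In AGN NECa 34 of 44 were higher, against 14.2% of all genes. The added gene was Nek2, a centrosome kinase, at 0.18 ± 0.06 (adjusted p = 0.0402, limma), a floor probe whose difference turned to -0.08 after normexp background correction. That correction called 33 genes higher in vehicle and 33 in AGN NECa, and floor probes lower: Cenpe, Nuf2, Bub1, Smc2 and Pttg1 in vehicle NECa (-0.52 to -0.75) and all of these but Nuf2 in AGN NECa. Over all probes it moved the vehicle calls from 3181 higher and 4197 lower to 3091 and 8753, and the AGN calls from 3713 and 4245 to 3220 and 9492.

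Markers of other cell types moved in the same carcinomas. Neuroendocrine markers rose (7 of 9 called in vehicle NECa), with a mean log2 level of 9.73 to 10.12 against 7.51 to 7.59. Luminal markers fell (4 of 6 called) from 10.99 to 11.18 down to 7.91 to 8.87, secretory markers (5 of 5) from 14.63 to 14.92 down to 7.19 to 9.33, and basal markers (4 of 4) from 9.72 to 9.98 down to 7.23 to 8.25. Smooth muscle (8 of 8 lower, median difference -2.77 log2), skeletal muscle (9 of 10, -2.75), seminal vesicle (6 of 7, -7.15) and adipocyte markers (6 of 8, -0.92) were lower too. Fewer cells of a type and less RNA per cell cannot be told apart in such bulk tissue, and the part of cell composition in the mitotic values was not tested.

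All 4 regulators rose in vehicle NECa. Among them Pbk, a mitotic kinase also known as TOPK, had the largest rise of all 44 genes. It read 262.6 and 209.5 in the whole prostates, 6797, 9342 and 7522 in vehicle NECa, and 9052, 7233 and 5799 in AGN NECa. The groups were far apart, and the vehicle difference was 5.06 ± 0.21 log2, or 33.3-fold (adjusted p = 2.52e-08, limma). Mybl2 rose by 3.47 ± 0.16 and Foxm1, its partner transcription factor, by 2.42 ± 0.21. Melk, a kinase of proliferating cells, rose least in this role, by 1.39 ± 0.16.

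Of 5 genes of mitotic entry 4 rose. Cdk1 read 189.5 and 201.6 in whole prostate, 2861, 3581 and 3143 in vehicle NECa and 2732, 3096 and 3308 in AGN NECa, a rise of 4.02 ± 0.16 log2 in vehicle tumours (16.3-fold). Plk1, the polo-like kinase, rose by 3.61 ± 0.17, and the Cdk1-activating phosphatase Cdc25c by 2.20 ± 0.19. Ccna2, cyclin A, rose by 0.52 ± 0.13. It stayed near the floor even in carcinomas, at 187 to 257, and its adjusted p was 0.0779 without the first whole prostate.

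The kinetochore is assembled on CENP-A, the histone H3 variant of centromeres encoded by Cenpa, and 4 of 6 kinetochore genes rose. Cenpa read 361.2 and 361.3 in whole prostate and between 10352 and 12612 in the 6 carcinomas, a rise of 4.95 ± 0.13 log2 in vehicle NECa (30.9-fold, adjusted p = 1.31e-09, limma). Of its microtubule-binding partners, Ndc80 rose by 2.86 ± 0.17 and Spc25 by 2.30 ± 0.14. Cenph, an inner kinetochore protein, rose least, by 0.68 ± 0.11.

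Of 5 checkpoint genes 3 rose. Mad2l1, whose product holds Cdc20 inactive until chromosomes are attached, rose most, by 3.30 ± 0.18, Bub1b (BubR1) by 2.15 ± 0.15 and Bub3 by 1.72 ± 0.15. Bub3, which docks checkpoint proteins on kinetochores, read 285.6 and 269.2 in whole prostate and 828 to 960 in the carcinomas. Both measured passenger genes rose: Birc5 (survivin) by 4.37 ± 0.16 and Cdca8 (borealin) by 2.79 ± 0.16.

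For the chromosomes themselves 3 of 4 genes rose. Top2a, which untangles sister chromatids, read 183.4 and 212.6 in whole prostate, 1864, 3092 and 2596 in vehicle NECa and 2657, 1963 and 2504 in AGN NECa. Its rise was 3.64 ± 0.22 log2. The condensin subunits Ncapd2 and Ncaph rose by 3.32 ± 0.21 and 2.10 ± 0.17. Among spindle genes, 6 of 8 of which rose, the chromokinesin Kif22 rose most, by 4.22 ± 0.19, ahead of Kif2c (3.32 ± 0.16), a microtubule depolymerase of centromeres, and the chromokinesin Kif4 (3.16 ± 0.19). Aurka, the centrosomal Aurora kinase, rose by 2.91 ± 0.24, Kif15, a spindle motor, by 1.99 ± 0.15, and Tpx2, the activator of Aurora A, by 0.78 ± 0.14. Aurka stood out on 1 array, AGN NECa 3, at 2684 against 1358 to 1637 on the other 5.

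At mitotic exit 4 of 5 genes rose, Cdca3, a substrate of the anaphase-promoting complex, by 4.41 ± 0.19 and Cdc20, its activator, by 4.03 ± 0.16. Espl1, the separase that cleaves cohesin, rose by 1.72 ± 0.13, and Ube2c, an ubiquitin-conjugating enzyme of the same complex, by 0.40 ± 0.09. For cytokinesis 3 of 5 genes rose. Prc1, which bundles midzone microtubules, read 317.3 and 285.9 in whole prostate and between 6334 and 7572 in the carcinomas, a rise of 4.51 ± 0.14. The midzone kinesin Kif23 rose by 2.61 ± 0.19 and Anln, the contractile ring scaffold anillin, by 2.58 ± 0.17. The 33 rises spanned 0.40 to 5.06 log2, and in each of the 9 roles more than 1 gene rose. In AGN NECa the same gene led each role as in vehicle NECa: Pbk (4.95), Cdk1 (3.96), Cenpa (4.98), Mad2l1 (3.16), Birc5 (4.49), Top2a (3.58), Kif22 (3.98), Cdca3 (4.25) and Prc1 (4.58). Bub3 rose by 1.66 there.

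The next comparison asks how far the same genes are raised in the TRAMP gland. In TRAMP DLP, with ages and treatments in the fit, 29 of 44 genes were higher than in wild-type DLP and none lower, against 5.13% of all genes called higher. The median difference was 0.50 log2 against -0.05 over all genes. All 6 TRAMP DLP arrays lay above both wild-type DLP arrays for 30 of 44 genes, against 8.59% of all genes. At 2-fold or more 14 of the 29 remained, against 0.964% of all genes. The rise was present at each age: the median difference was 0.47 log2 at 16 weeks, where all 3 TRAMP arrays exceeded the wild-type array for 31 of 44 genes (18.6% of all genes), and 0.59 at 28 weeks, for 34 of 44 (25% of all genes). These values at 1 age rest on 1 wild-type array and have no test.

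Pbk again had the largest rise. It read 217.4 (16 weeks) and 256.0 (28 weeks) in wild-type DLP, 1162, 1085 and 1057 in vehicle, AGN and D/DA DLP at 16 weeks, and 1669, 1215 and 1386 at 28 weeks. No TRAMP array came near the wild type, and the difference was 2.40 ± 0.10 log2, or 5.28-fold (adjusted p = 1.29e-05, limma). Cenpa read 362.3 and 384.1 in wild-type DLP, 1642, 1643 and 1617 at 16 weeks and 2518, 1925 and 2022 at 28 weeks, a rise of 2.33 ± 0.12. Prc1 rose by 2.37 ± 0.12. These 3 genes also had the 3 largest rises in vehicle NECa.

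Cdk1 read 199.1 and 200.7 in wild-type DLP and between 690 and 1032 in TRAMP DLP, a rise of 2.02 ± 0.12. In the entry role Plk1 rose by 1.40 ± 0.12 and Cdc25c by 0.38 ± 0.07. Of the other regulators Mybl2 rose by 0.50 ± 0.07, Foxm1 by 0.45 ± 0.07 and Melk by 0.25 ± 0.06. Mybl2 thus moved from 156.4 and 166.1 in wild-type DLP to no more than 253.6 in TRAMP DLP, where the carcinomas read 1861 to 2419.

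Of the kinetochore genes besides Cenpa, Ndc80 rose by 0.75 ± 0.10 and Cenph by 0.42 ± 0.09. Mad2l1 (1.38 ± 0.12) and Bub1b (0.77 ± 0.07) rose among checkpoint genes, and Birc5 (1.61 ± 0.12) and Cdca8 (0.70 ± 0.07) among passenger genes. Top2a read 191.2 and 186.9 in wild-type DLP and 334 to 491 in TRAMP DLP, a rise of 1.13 ± 0.10, and Ncapd2 rose by 1.31 ± 0.08. Kif22 rose most of the spindle genes (1.31 ± 0.09) and Tpx2 least (0.38 ± 0.06), with Kif2c (0.99 ± 0.12), Kif4 (0.90 ± 0.12), Aurka (0.76 ± 0.10) and Kif15 (0.49 ± 0.07) between them. At exit and cytokinesis Cdc20 (2.08 ± 0.11), Cdca3 (1.92 ± 0.14), Espl1 (0.31 ± 0.06), Anln (1.24 ± 0.12) and Kif23 (0.92 ± 0.09) rose. The smallest rises were the least secure: leaving out the 28-week wild-type array gave Cdc25c an adjusted p of 0.0542, Espl1 0.0719, Cenph 0.138 and Melk 0.165 (limma). Cenph also missed the threshold without the 16-week vehicle array (adjusted p = 0.0527) or the 28-week AGN array (0.0644), and Melk without either vehicle array, either AGN array or the 28-week D/DA array (0.0622 to 0.11).

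Ncaph, the kleisin subunit of condensin I, differed between the wild-type arrays themselves. It read 682.9 in wild-type DLP at 16 weeks and 274.9 at 28 weeks, and 1216 to 1367 on the 6 TRAMP arrays. The TRAMP arrays were all higher and close together, with a rise of 1.54 ± 0.25 (adjusted p = 0.00518, limma) whose error comes from the wild type. The whole prostates read 453.1 and 531.2, between the wild-type DLP values.

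Apart from the floor probes, 4 genes did not pass in DLP. Bub3 read 250.5 and 251.8 in wild-type DLP and 253.5 to 277.1 in TRAMP DLP, a difference of 0.08 ± 0.07 (adjusted p = 0.501, limma). Its TRAMP DLP levels lay below both whole prostates except on the 28-week vehicle array. Spc25 read 353.5 and 264.2 in wild-type DLP and 304.3 to 414.1 in TRAMP DLP, so the groups overlapped and the difference was 0.18 ± 0.14, a second Spc25 probe giving 0.28. Ccna2 (0.06 ± 0.05) and Ube2c (-0.01 ± 0.05) were at the floor in all DLP arrays.

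The plot of 9 genes by group sets these patterns side by side. Pbk, Cenpa and Cdk1 step up from wild type to TRAMP DLP to NECa. The TRAMP DLP values of Bub3 lay within the range of the 4 wild-type arrays, and those of Ube2c did too except for 1 array just below it.

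**Figure D2:**
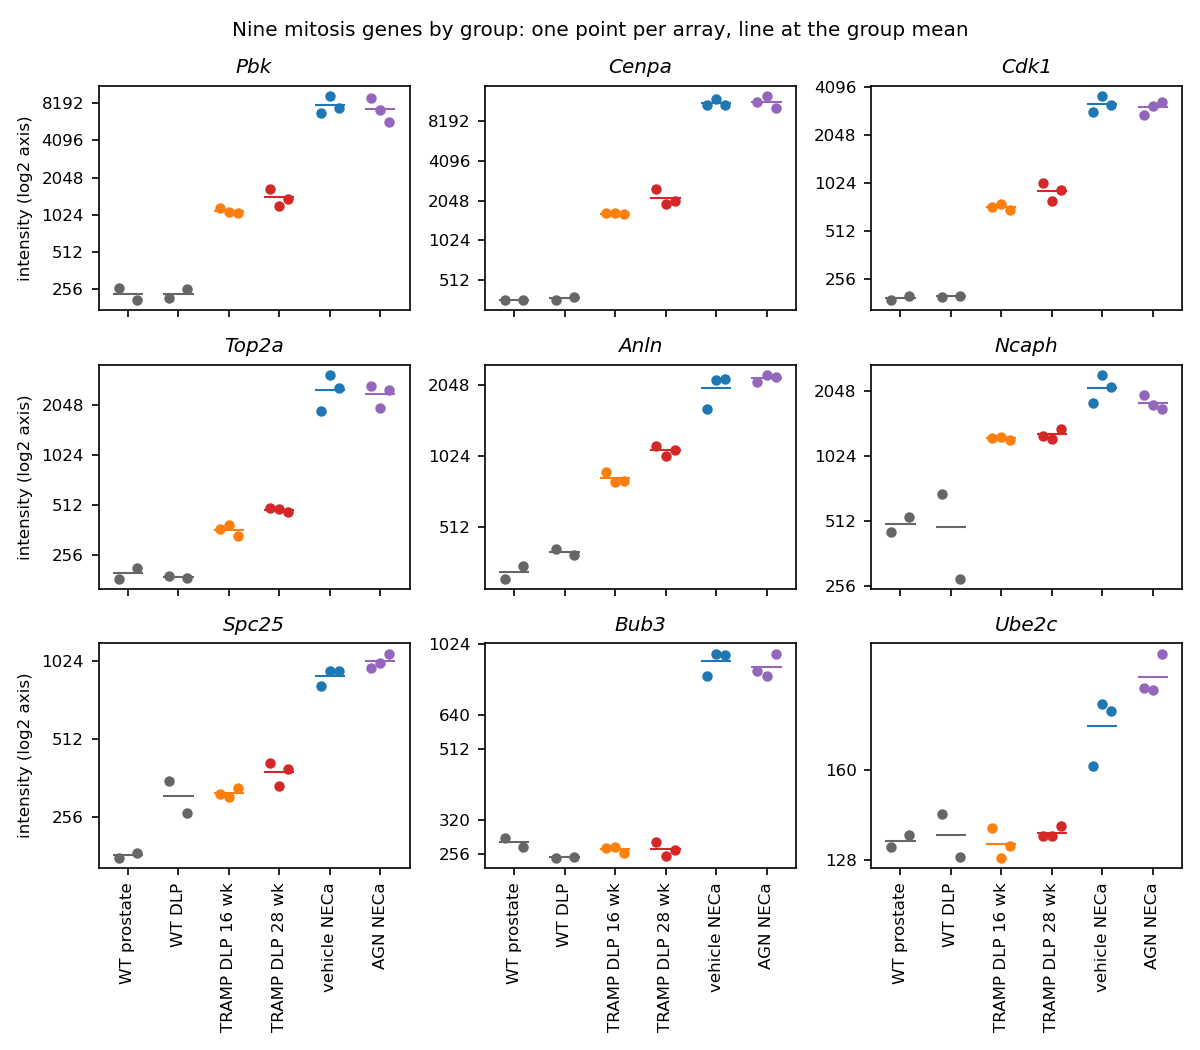
Intensity (log2 axis) of 9 mitosis genes by group, with 1 point per array and a line at the group mean. Pbk, Cenpa, Cdk1, Top2a and Anln step up from wild type to TRAMP DLP to NECa. Spc25 overlaps between wild-type and TRAMP DLP, Bub3 and Ube2c are low in all DLP arrays, and the wild-type DLP points of Ncaph are 682.9 and 274.9.

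Cell type markers also differed between TRAMP and wild-type DLP, where fewer cells and less RNA per cell cannot be told apart either. Smooth muscle markers were lower (7 of 8 called, mean log2 level 10.76 to 11.16 against 11.50 to 11.61), adipocyte markers were higher (4 of 8 called, 7.52 to 9.11 against 7.25 and 7.92), and luminal markers read 10.81 to 11.00 against 10.96 to 11.03 with 1 of 6 higher and 1 lower. Secretory markers were lower (4 of 5 called, 12.41 to 13.46 against 14.41 to 14.48), as were basal markers (3 of 4 called, 8.49 to 9.21 against 9.20 to 9.89), and 3 of 7 seminal vesicle, 2 of 6 endothelial and 2 of 7 fibroblast markers were called lower. T cell (7.30 to 7.46) and B cell markers (7.06 to 7.19) were near the floor of the array in TRAMP DLP. Neuroendocrine markers read 7.27 to 7.41 against 7.42 to 7.47 with 0 of 9 called, and 0 of 10 skeletal muscle markers were called. On this scale no marker reads 0. The part of these differences in the mitotic values was not tested.

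Set directly against vehicle and AGN TRAMP DLP, with the D/DA arrays left out of this difference, the 6 carcinomas had higher levels of 43 of 44 genes. The share over all genes was 54.6%. The median probe itself differed by 0.13 log2 between the tissues, and 14681 probes were called higher against 4758 lower. After each array was centred on its median the probes split into 6522 higher and 5560 lower, and 34 of 44 genes were higher, against 25.2% of all genes, and 1 lower. At 2-fold or more 28 of 44 were higher, against 5.45% of all genes. The 9 calls lost with centring were those of 8 floor probes and of Cenph, and the gene then lower was Pttg1, also a floor probe (-0.17 ± 0.03). The largest difference was that of Mybl2 (3.26 ± 0.09), followed by Birc5 (2.94 ± 0.12) and Kif22 (2.81 ± 0.12). Pbk and Cenpa differed by 2.57 each, Top2a by 2.50, Cdk1 by 1.93, Bub3 by 1.75, Spc25 by 1.49 and Ncaph by 0.64. In the other roles Plk1 (2.17), Cdca3 (2.31) and Prc1 (2.09) led entry, exit and cytokinesis. Melk (1.32) and Cdca8 (2.37) were the smallest of the regulators and passenger genes, and in the other roles the smallest was a floor probe: Ccnb2 (0.10), Cenpe (0.11), Bub1 (0.11), Smc2 (0.17), Nek2 (0.12), Kif20a (0.15) and Pttg1, which alone did not pass (-0.08 ± 0.05). For 29 of 44 genes every carcinoma exceeded all 6 TRAMP DLP arrays, D/DA included, and these exceeded both wild-type DLP arrays. That order was held by 2.97% of all genes.

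The rise over wild type was then compared between the tissues with the difference of both differences. Only vehicle arrays stood for TRAMP mice here. The rise in vehicle NECa over whole prostate exceeded that in vehicle DLP over wild-type DLP for 30 of 44 genes and fell short for none. Over all genes 21.8% were called in either direction. Kif22 (2.92 ± 0.26), Mybl2 (2.90 ± 0.20) and Birc5 (2.71 ± 0.26) differed most. Pbk and Cenpa differed by 2.50 each, Top2a by 2.48, Cdk1 by 1.91, Bub3 by 1.60 and Ube2c, the least of those called, by 0.39 ± 0.11. Plk1 (2.23), Mad2l1 (1.77), Cdca3 (2.41) and Prc1 (2.16) had the largest differences of entry, checkpoint, exit and cytokinesis, and Melk (1.13) and Cdca8 (1.97) the smallest of the regulators and passenger genes. The smallest of the other roles were floor probes, between -0.09 (Pttg1) and 0.07 (Hmmr). After normexp correction 29 genes were called higher and 2 floor probes lower, Smc2 (-0.78) and Pttg1 (-0.93), and the probes called moved from 2579 higher and 2466 lower to 1984 and 3708. Of the genes above the floor, Cenph (0.29 ± 0.19), Tpx2 (0.41 ± 0.17) and Ncaph (0.57 ± 0.39) did not pass.

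**Figure D3:**
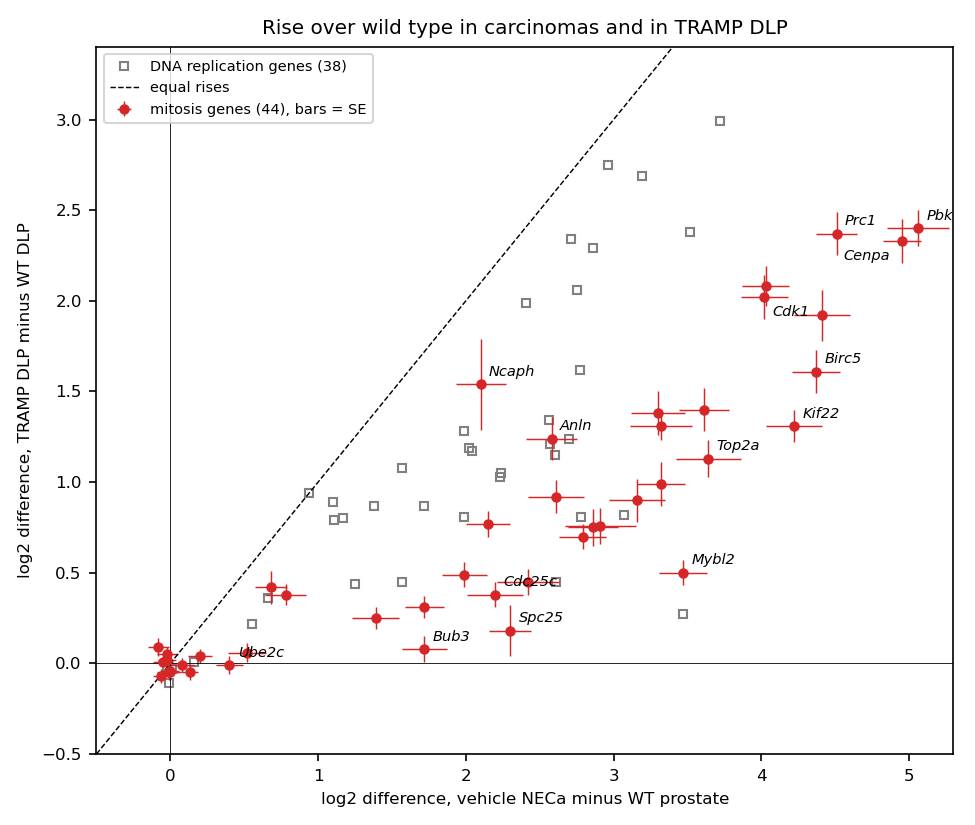
Log2 difference from wild type in TRAMP DLP (vertical) against vehicle NECa (horizontal) for the 44 mitosis genes (circles, bars are SE) and 38 DNA replication genes (squares); the dashed line marks equal rises. The mitosis genes above the floor lie below the line, with Ncaph nearest to it among those with a rise over 2 log2.

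Because log2 differences are compressed near the floor, the rise in TRAMP DLP was also expressed as a share of the carcinoma's excess intensity over wild type, gene by gene. It was computed only for genes called higher in both tissues, 29 of the 44, and is a description. Bub3, Spc25, Ccna2 and Ube2c, which rose in carcinomas but did not pass in DLP, were thus left out. The medians and ranges below therefore describe only genes that rose in DLP. Mybl2 reached 3.36% ± 1.09 of its carcinoma excess (SD, n = 6 arrays), Cdc25c 7.09% ± 2.28 and Cdca8 8.30% ± 1.70. Birc5 reached 9.30% ± 2.19, Top2a 10.3% ± 2.96, Pbk 13.9% ± 3.12, Cenpa 13.9% ± 3.19, Prc1 20.1% ± 4.11 and Cdk1 21.2% ± 4.52. The highest shares were those of Anln (31.4% ± 8.32), Tpx2 (34.0% ± 6.63), Ncaph (53.3% ± 3.68) and Cenph (54.0% ± 24.1), and these were the 4 of 29 above 25%. Among replication genes 27 of 33 with a value lay above 25%, and the range ran from 8.19% (Asf1b) to 117% (Rpa1). The median share was 13.9% for the 29 mitotic genes, 19.3% for 31 other mitosis genes and 45.7% for the replication genes. Over all 419 genes called higher in both tissues the median was 29.2%, and the number of these above 25% was not counted.

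**Figure D4:**
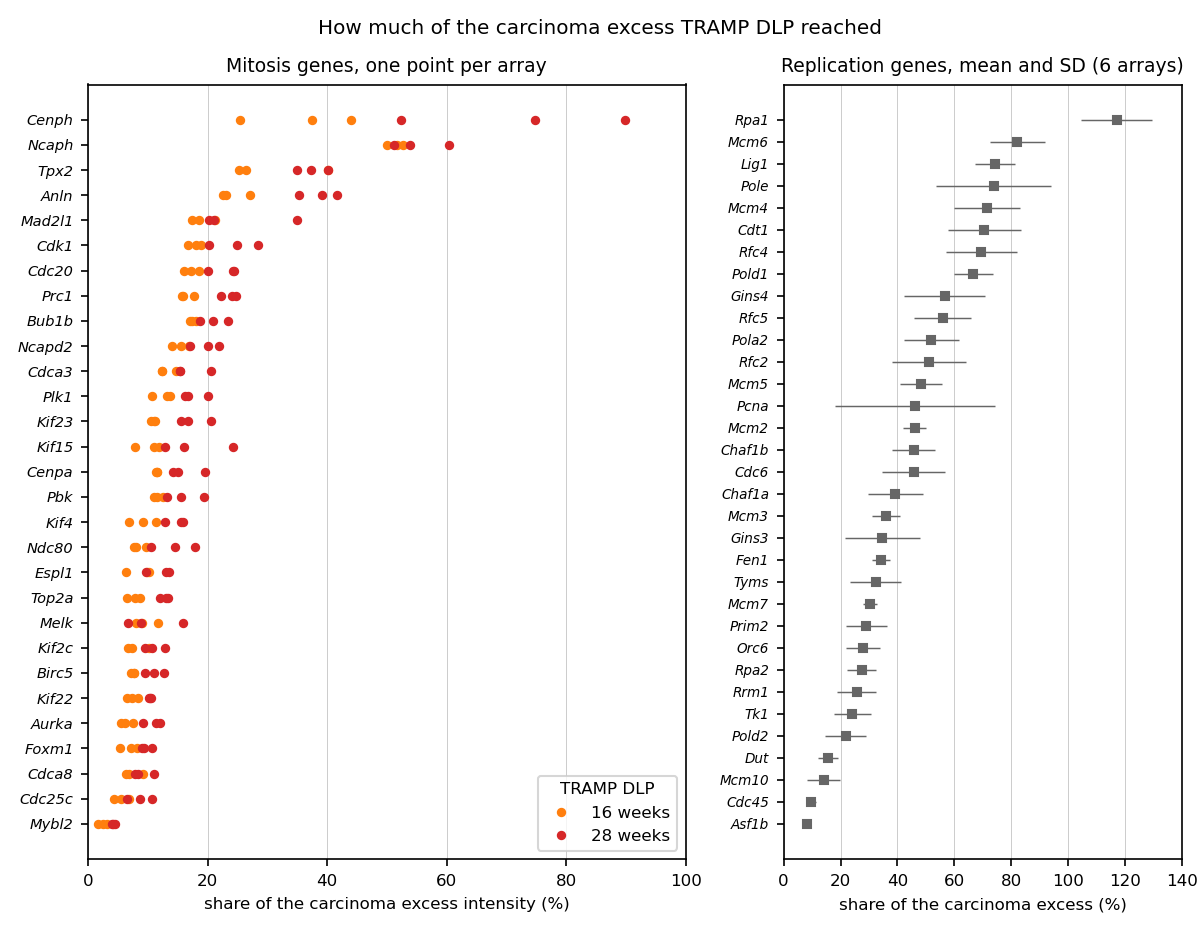
Share of the carcinoma excess intensity reached in TRAMP DLP. Left, the 29 mitosis genes called higher in both tissues, 1 point per array (orange 16 weeks, red 28 weeks); right, 33 replication genes as mean and SD over 6 arrays. Averaged over the 6 arrays, most mitosis genes lie between 3.36% and 22.2%, with single arrays outside that range. The means of the replication genes reach up to 117%.

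Age was examined within the 3 TRAMP treatments. From 16 to 28 weeks 2 of 44 genes rose by the test, against 0.910% of all genes called higher: Top2a by 0.41 ± 0.07 (adjusted p = 0.0197, limma) and Anln by 0.39 ± 0.08 (adjusted p = 0.0497, limma). Top2a read 364.1, 385.0 and 334.4 at 16 weeks and 491.4, 481.4 and 460.9 at 28 weeks, and Anln 872.6, 794.9 and 801.9 against 1127, 1016 and 1085. Neither gene overlapped between ages. The other genes leaned the same way without passing: the difference was above 0 for 40 of 44 genes, with a median of 0.17 against 0.01 over all genes, and 25 had an unadjusted p under 0.05, against 13.9% of all genes. All 3 arrays at 28 weeks lay above all 3 at 16 weeks for 25 of 44 genes, against 8.80% of all genes. Prc1 differed by 0.42 ± 0.09 (adjusted p = 0.0557, limma), Kif23 by 0.31 ± 0.07 (0.0528), Cenpa by 0.39 ± 0.10 (0.109), Pbk by 0.36 ± 0.09 (0.114), Cdk1 by 0.33 ± 0.10 (0.155) and Bub3 by 0.00 ± 0.07. The largest differences of the remaining roles were those of Birc5 (0.37 ± 0.09), Kif4 (0.32 ± 0.08), Cdc20 (0.31 ± 0.09) and Mad2l1 (0.23 ± 0.11). Besides Bub3 the smallest of each role lay between -0.04 (Kif20a) and 0.11 (Cdca8), with Pttg1 (-0.03), Hmmr (-0.01), Cenpe and Ccna2 (0.00), Melk (0.02) and Smc2 (0.03) between them. The count of 2 was unstable: it was 10 without the vehicle array of either age, 1 without the 16-week AGN or the 28-week D/DA array, and 0 without the 16-week D/DA array.

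Skeletal muscle markers moved with age in the same arrays. Of 10, 9 were called lower at 28 weeks, and their mean log2 level was 11.36, 11.40 and 10.90 at 16 weeks and 9.49, 10.66 and 9.93 at 28 weeks. With that level as a covariate no mitotic gene passed the age test: the difference was 0.33 ± 0.20 for Top2a and 0.40 ± 0.24 for Anln, close to the values without it but with larger errors, and -0.01 ± 0.25 for Cenpa, 0.04 ± 0.24 for Pbk and -0.03 ± 0.23 for Cdk1. The median over the 44 genes was then 0.10. Muscle level itself moved with age, here and on the wild-type arrays compared below. A fit with both therefore has few arrays left for error and can hardly tell them apart. The lost calls do not assign the age differences to muscle. Adipocyte markers rose (4 of 8 called), from 7.52 to 8.21 up to 8.30 to 9.11, and macrophage markers rose (4 of 7 called), from 8.83 to 8.99 up to 9.23 to 9.61. Secretory markers fell (3 of 5 called), from 13.18 to 13.46 down to 12.41 to 12.66, and 2 of 7 seminal vesicle markers were called lower. The part of these markers in the age differences was not tested beyond the muscle covariate.

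Wild-type DLP gave a single array at each age, so the age change of TRAMP DLP was compared with it in 1 fit. That fit passes through both wild-type arrays exactly. Its errors and p-values come from the spread of the TRAMP arrays, moderated over probes, and hold no measure of wild-type spread. It differed for 1 gene of 44, against 2.28% of all genes in either direction: Ncaph, by 1.37 ± 0.18 (adjusted p = 0.00259, limma), which read lower at 28 than at 16 weeks in wild-type DLP and differed by 0.06 ± 0.09 between the ages in TRAMP DLP. Spc25 came next at 0.68 ± 0.15 (adjusted p = 0.0502, limma). Top2a differed by 0.44 ± 0.14, Cdk1 by 0.32 ± 0.20, Cenpa by 0.31 ± 0.20, Pbk by 0.12 ± 0.19 and Bub3 by -0.01 ± 0.13. Skeletal muscle markers also differed here, 10 of 10 called lower, with mean log2 levels of 8.51 and 11.49 on the 16- and 28-week wild-type arrays, and with their level as a covariate Ncaph differed by 1.38 ± 0.82 and did not pass. Basal (3 of 4) and seminal vesicle markers (3 of 7) were called lower in this difference as well. The count was 5 without the vehicle array of either age, and 2 without the D/DA array of either age.

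Treatment was compared last. Between AGN and vehicle NECa 0 of 44 genes were lower or higher by limma, against 0.0482% of all genes called lower. An unadjusted p under 0.05 was found for 1, Cdca8 at 0.40 ± 0.15, against 6.75% of all genes. The differences ran from -0.25 (Kif22) to 0.40, with a median of 0.04, the same as over all genes. Pbk differed by -0.11 ± 0.17, Cenpa by 0.03 ± 0.10, Cdk1 by -0.07 ± 0.14, Top2a by -0.07 ± 0.20 and Bub3 by -0.05 ± 0.14. Vehicle NECa 1 was the lowest of the 3 vehicle tumours for 41 of 44 genes, against 66.0% of all genes, Mybl2, Birc5 and Cdc20 being the exceptions. It also had the highest fibroblast (9.76) and macrophage (10.66) marker levels of the 6 carcinomas.

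In DLP, neither AGN nor D/DA changed a mitotic gene by the test, 0 of 44 for each and 0% of all genes. With either agent 3 genes had an unadjusted p under 0.05, all floor probes (Cenpe, Ect2 and Kif20a). Over all genes the share was 4.71% with AGN and 8.14% with D/DA. With AGN the differences from vehicle were -0.28 ± 0.13 for Pbk, -0.19 ± 0.15 for Cenpa, -0.16 ± 0.14 for Cdk1, 0.03 ± 0.13 for Top2a and -0.06 ± 0.08 for Bub3. With D/DA they were -0.20 ± 0.13, -0.17 ± 0.15, -0.11 ± 0.14, -0.11 ± 0.13 and -0.06 ± 0.08 in the same order. Both sets share the vehicle arrays, and each rests on 1 array per age. The vehicle array was the highest of the 3 TRAMP arrays for 22 of 44 genes at 28 weeks, against 30.0% of genes, and for 12 of 44 at 16 weeks, against 23.2%. The 28-week vehicle array also had the highest adipocyte marker level (9.11) and the lowest skeletal muscle level (9.49) of the TRAMP DLP arrays, and their part in its mitotic values was not tested.

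For comparison, 3 lists outside the 44 genes were read. Of 52 other mitosis genes 42 were higher in vehicle NECa and none lower, against 12.9% of all genes called higher. They were led by the kinesins Kif18b (3.39 ± 0.17) and Kif11 (3.04 ± 0.15) and by Gtse1 (2.79 ± 0.17). In TRAMP DLP 31 were higher, against 5.13% of all genes, and 1 lower, Depdc1a at -0.19 ± 0.04. Nusap1 (1.52 ± 0.12), Cdca2 (1.10 ± 0.10) and Ncapd3 (0.93 ± 0.10) led those higher. The 13 subunits and activators of the anaphase-promoting complex (APC/C), the ubiquitin ligase that Cdc20 activates, were not tested against these lists. In vehicle NECa 5 were higher, led by Fzr1 (1.13 ± 0.15), Anapc5 (0.76 ± 0.13) and Cdc16 (0.76 ± 0.13), and 1 lower, Anapc13 at -0.85 ± 0.21, against 12.9% of all genes called higher. None of the 13 passed in TRAMP DLP by limma, where 2 had an unadjusted p under 0.05, against 31.2% of all genes, and the median difference was -0.02.

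Of 38 DNA replication genes 34 were higher in vehicle NECa, against 12.9% of all genes. Their median difference was 2.14 log2 against 2.25 for the 44 mitotic genes. The helicase subunit Mcm5 (3.72 ± 0.14), Chaf1b (3.52 ± 0.17) and Rrm2 (3.47 ± 0.18) led. In TRAMP DLP 33 were higher, against 5.13% of all genes, with a median of 0.98 against 0.50 for the mitotic genes. Mcm5 (2.99 ± 0.12), Mcm6 (2.75 ± 0.12) and the licensing factor Cdt1 (2.69 ± 0.15) led there. The mitotic medians include the 11 floor probes. For the 33 genes above the floor, a set chosen by its levels on these arrays, they were 2.86 in vehicle NECa and 0.90 in TRAMP DLP. Silent probes of the replication list were not taken out. The difference between the rises, with vehicle arrays only, was called for 21 of 38 replication genes with a median of 0.72, against 21.8% of all genes called. Beside these it was called for 30 of 44 mitotic genes, with a median of 1.61 (1.97 without the floor probes). The lists themselves were not tested against each other. Replication genes started higher in wild-type DLP, where differences are less compressed. Their mean log2 level was 8.10 to 8.16, against 7.46 to 7.51 for the 44 genes and 7.58 to 7.65 without the floor probes.

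The probe choice bears on individual genes. Of the 44, 15 had several probes, 41 in all, and of the 26 others 18 were called higher in vehicle NECa and 11 in TRAMP DLP. The 3 probes of Birc5 gave rises in DLP of 1.61, 1.48 and 1.20 log2, and the 4 probes of Cdc20 gave between 0.55 and 2.08. Other probes of Cdk1, Anln, Ndc80 and Kif15 read at the floor, with mean intensities between 140 and 162, and showed no rise in DLP. Some brighter ones also rose less than the probe used. A second Mybl2 probe (mean intensity 209) gave 1.20 in vehicle NECa and -0.00 in DLP, so the Mybl2 values above rest on its brightest probe. In DLP a second Melk probe gave 0.04, and the other Kif4 probes gave 0.17 and 0.32, only the latter called.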

How the data were processed

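Per the labels' protocols, biotin-labelled cRNA of each sample's total RNA was put on 1 of 16 mouse bead arrays. The deposited intensity values were linear and normalized, and lumi is named without a version in the submitters' processing notes. The normalization method is not given in the sources used here. Background was not brought to 0. The deposited table of raw signals was left out: the names of its 32 per-sample columns (16 signals) match no label. Arrays have no read depth; their number limits the precision.

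Of 25697 probes, 23978 had a symbol in the platform annotation, covering 16593 genes, and 1719 had none. After a log2 transform, models were fitted by limma 3.58.1 (R 4.3.3; lmFit, eBayes with an intensity trend). A call means a two-sided p under 0.05 after Benjamini-Hochberg adjustment across the 25697 probes. Carcinomas were fitted with the whole prostates (8 arrays), AGN and vehicle carcinomas alone (6 arrays), the 8 DLP arrays with additive terms for treatment and age, age changes with genotype-specific slopes, and tissues against each other on all 16 arrays. In the last of these fits, NECa against TRAMP DLP took the vehicle and AGN arrays of both tissues. The difference between rises took vehicle and wild-type arrays. Fits were tested on simulated data.

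Deviations of same-numbered vehicle and AGN carcinomas correlated at r = -0.04, -0.26 and 0.16, and those of other pairs at -0.27 to 0.32. With 3 tumours per group this cannot show whether the numbers pair them, and the main fits were unpaired. The members, the 9 roles, the lists and the tests were chosen with earlier results of these data known. Every gene of the list with a probe is accounted for; the rule was to name, per comparison and role, the largest and smallest difference and every gene whose call departs from the rest, and Pbk, Cenpa, Cdk1, Top2a and Bub3 throughout. Floor probes are given together where they are the smallest, and role by role extremes are left out for the treatments, the age difference between genotypes and the comparison of wild-type tissues, where at most 1 gene passed. Alternatives were other scalings, no intensity trend, array weights, the probe of largest variance, a 2-fold minimum, a muscle covariate, the replicate block and leaving out each array. Promoter sequences are RefSeq's (GRCm38.p6). Python 3.11.15 with pandas 2.3.3, numpy 2.4.6 and matplotlib 3.10.9 was used for counts and plots.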

Additional observations from a re-analysis of the deposited data

Results flagged for a closer look

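Rises over wild type that differed between vehicle NECa and vehicle TRAMP DLP drew attention. The difference itself passed the test for 30 of 44 mitosis genes, against 21.8% of all genes in either direction. Among the 30 were Kif22 (2.92 log2), Mybl2 (2.90), Birc5 (2.71) and, as the smallest, Ube2c (0.39).

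The age change differed between TRAMP and wild-type DLP for 1 gene, Ncaph, by 1.37 log2. It rests on 1 wild-type array per age, 682.9 and 274.9, whose spread the test does not measure, and the reason was not tested.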

How the results depend on the processing

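Of the counts of called genes, those of the rises in vehicle NECa (33; 29 to 36 over all alternatives) and AGN NECa (34; 29 to 35) and of the difference between rises (30; 28 to 32) stayed within 1.5 times, and the 3 treatment counts stayed at 0. The rise in TRAMP DLP (29) was 14 at 2-fold and 25 to 30 without 1 array. NECa against TRAMP DLP (43) was 28 at 2-fold and 39 to 43 without 1 array. It was 34 after median centring, 33 after quantile normalization and 32 after normexp, each with 1 gene lower, Pttg1. The TRAMP age count (2) was 6 after quantile normalization, 1 after median centring or normexp, 4 with array weights, 0 with the muscle covariate or at 2-fold, and 0 to 10 without 1 array. The age difference (1) was 2 after quantile normalization or with array weights, 0 with the muscle covariate and 1 to 5 without 1 array; without either wild-type DLP array it could not be fitted. Wild-type prostate against wild-type DLP (1) was 2 after normexp, 0 at 2-fold and 0 to 2 without 1 array. Floor probes turned in NECa against TRAMP DLP under quantile normalization and normexp: Ccnb2 to -0.04 and -0.25, Cenpe to -0.03 and -0.20, Nuf2 to -0.01 and -0.10, Bub1 to -0.02 and -0.17, Nek2 to -0.04 and -0.25. Nek2 in AGN NECa turned to -0.08 under normexp. With the replicate block the counts were 33, 33 and 0 in vehicle NECa, AGN NECa and AGN against vehicle, and no call changed except that of Nek2. In the fit of all 16 arrays Cdc25c, Foxm1, Melk and Espl1 missed the threshold in TRAMP DLP (adjusted p 0.13, 0.0985, 0.257 and 0.0552, limma). The cause of these changes was not tested. Genes near the floor have compressed differences at this signal over background.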
